A study of Homo sapiens with 6 samples.

Results

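The 39 genes followed here act in homologous recombination, the Fanconi anaemia pathway, mismatch repair and the DNA damage checkpoint. They were taken by symbol from a table of 21429 Ensembl genes, with no use of their values. The table held 38 of them; MDC1 was not analysed here. All 38 had a mean of at least 3 over the libraries, the level set for testing. The table lists regularized-log (rlog) values, which are log2 values scaled for library size and pulled towards each gene's mean. Since they are not corrected for transcript length, levels are compared between libraries and not between genes.

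RNA was sequenced from U251 cells, an established human glioma line, in 2 groups of 3 libraries described as biological triplicates. The siRPL13 group was electroporated with an siRNA against RPL13, a protein of the large ribosomal subunit, and the siNC group with a control siRNA. Cells of both groups carried stably expressed amyloid precursor protein (APP) with the substitutions K670N and M671L, received doxycycline at 1 µg/mL from 24 h to induce it, and were harvested 72 h after transfection. The sources used here do not say whether the line is a single clone, and the p-values measure only the spread between these cultures.

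Homologous recombination mends double-strand breaks by copying the sister chromatid. Nucleases resect the broken end, mediators prepare the single strand for pairing, and motor proteins drive strand exchange. The Fanconi proteins recognise crosslinks between the strands: a core complex attaches ubiquitin to the paired FANCI and FANCD2 proteins, and recombination factors finish the repair. ATM and ATR are the kinases that signal breaks and stalled forks. Many of these genes are transcribed mainly in dividing cells, and in bulk RNA fewer cells in cycle and less RNA per cell cannot be told apart.

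The rlog of RPL13 was 13.03, 13.12 and 14.09 in the libraries labelled siRPL13 replicates 1 to 3, against 14.05, 14.16 and 14.18 in siNC replicates 1 to 3. The library labelled siRPL13 replicate 3 thus showed no lower target than siNC. Differences were therefore computed with that library (all 6 libraries) and without it (2 siRPL13 and 3 siNC libraries, called the 5-library comparison), where RPL13 was at 48.1% of its siNC level on the rlog scale. "Rose" and "fell" are used of genes whose limma adjusted p was under 0.05 in the 5-library comparison. Read depth per library is unknown. The median rlog of the 15327 genes tested lay between 9.12 and 9.13 in every library. Of the 11 glial markers 9 had a mean rlog of at least 3, among them GFAP (14.73 to 15.50), VIM, NES, SOX2 and CD44. ALDH1L1 lay at 0.77 to 0.85 and AQP4 was not analysed here. Markers of other cell types were partly present. Of the neuronal markers RBFOX3 lay at 0.20 to 0.23, SYT1 at 8.58 to 8.78, SNAP25 at 6.84 to 7.17, MAP2 at 10.32 to 10.66 and TUBB3 at 5.99 to 6.15. Of the leukocyte markers CD68 lay at 0.36 to 0.40, CD14 at 3.51 to 3.67 and CSF1R at 4.88 to 5.22. Of the endothelial and epithelial markers CDH1 lay at 0.40 to 0.45, VWF at 4.94 to 5.18, CDH5 at 5.84 to 6.43 and KRT18 at 7.78 to 8.15. The leukocyte markers PTPRC and AIF1, the endothelial marker PECAM1 and the epithelial marker EPCAM were not analysed here.

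With all 6 libraries, 0 of the 38 repair genes passed the limma test, where 0.00% of all genes tested did. Their adjusted p-values ran between 0.589 and 0.998. At an unadjusted p under 0.05 the count was also 0 of 38, against 8.32% of all genes tested. The difference, siRPL13 minus siNC, was below 0 for 19 genes (50.4% of all genes tested) and above 0 for 19, with a median of 0.0005 (log2). It ran between -0.21 for FANCA and 0.20 for FANCM. Weighting each library by its estimated spread gave weights of 0.992, 7.19 and 0.163 to siRPL13 replicates 1 to 3. The siNC replicates 1 to 3 had 0.596, 0.851 and 1.70. The siRPL13 side of this fit thus rested mostly on replicate 2. With these weights 12 repair genes were lower and 2 higher, against 17.7% and 17.0% of all genes tested.

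In the 5-library comparison 8 repair genes fell (FANCA, ATRIP, BRCA2, XRCC3, FANCG, RAD51D, RAD54L and H2AFX) and 1 rose (TP53BP1). The 8 that fell are 21.1% of the 38, where 10.7% of all genes tested fell. The 1 that rose is 2.63%, where 8.42% of all genes tested rose. In either direction 23.7% of the repair genes were called, against 19.1% of all genes tested, and at an unadjusted p under 0.05 the share was 31.6%, against 33.4%. All these changes were small: the differences of the genes that fell ran between -0.43 and -0.18 (log2), and that of TP53BP1 was 0.19. Of the 38 genes 24 lay below 0, where 50.5% of all genes tested did, and their median difference was -0.059, against -0.0014 over all genes tested. The count of falls moved with single libraries. It was 4 without siNC replicate 2 and 5 without siNC replicate 3, and TP53BP1 was not called in either fit. Without siNC replicate 1 every called gene kept its call. Without siRPL13 replicate 1 or 2 a single siRPL13 library is left, and no count is given here. No called gene changed sign in any of these fits. The share of all genes tested that fell in them is not given, so the counts cannot be set against it.

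**Figure D1:**
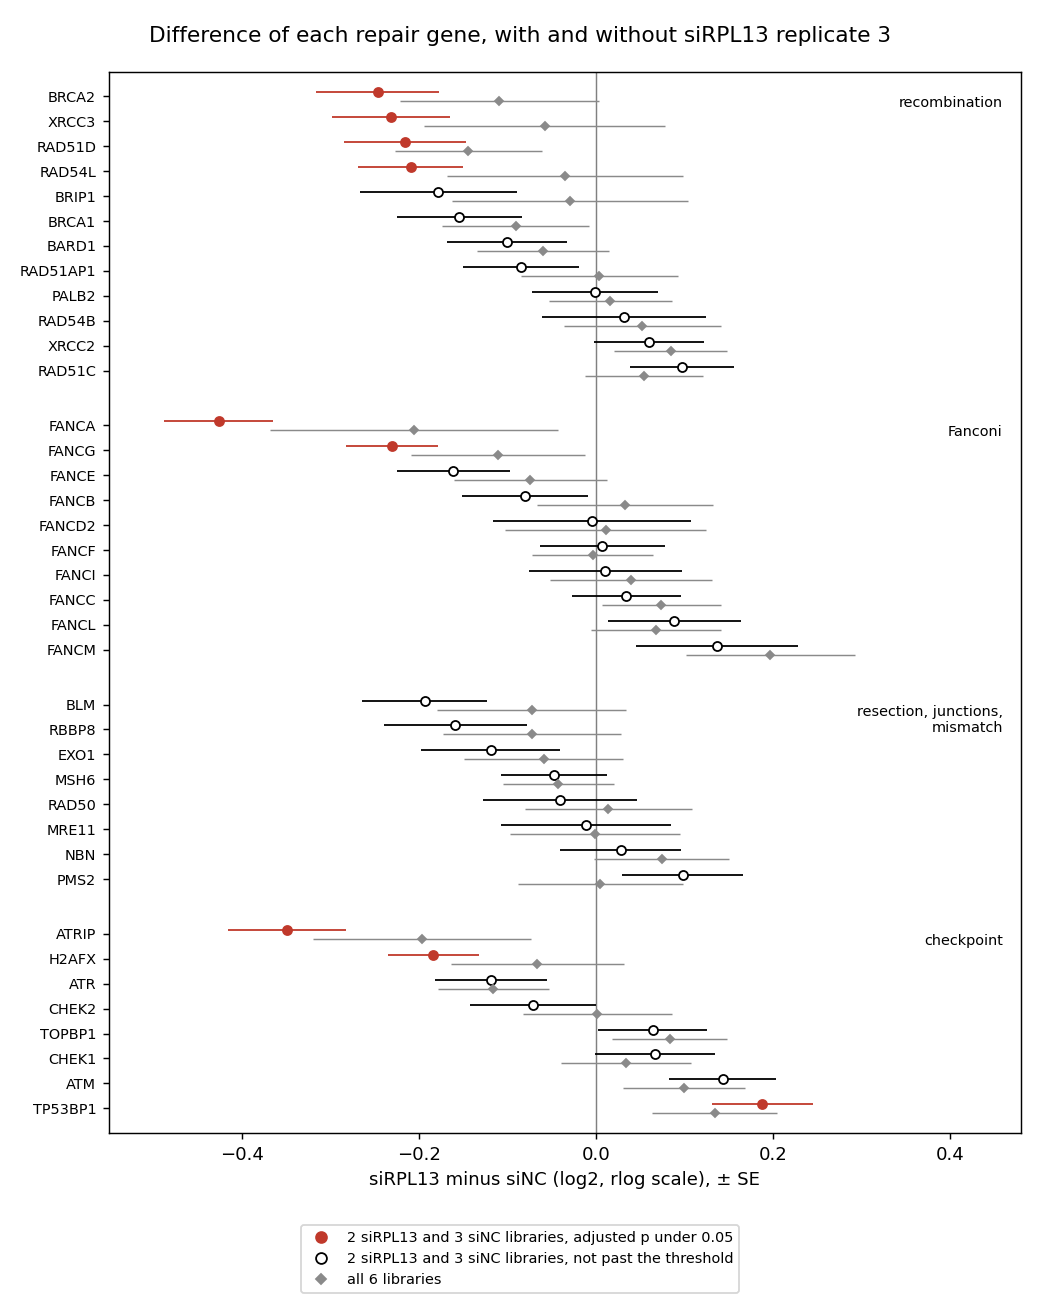
Difference of each of the 38 repair genes, siRPL13 minus siNC (horizontal axis, log2 on the rlog scale, ± SE), with circles for the 5-library comparison, red where the adjusted p was under 0.05, and grey diamonds for all 6 libraries. The 8 genes that fell lie between -0.43 and -0.18 without siRPL13 replicate 3, and with all 6 libraries no difference is below -0.21.

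Among the mediators, strand exchange and motor genes of recombination, 4 of 12 fell and 0 rose in the 5-library comparison, where 10.7% of all genes tested fell and 8.42% rose. The median difference of the group was -0.13, and -0.03 over all 6 libraries. BRCA2, the main mediator on resected DNA, stood at an rlog of 6.17, 6.13 and 6.56 in siRPL13 replicates 1 to 3, against 6.37, 6.39 and 6.42 in siNC replicates 1 to 3. Replicates 1 and 2 lay below every siNC library and replicate 3 above every one. Its difference was -0.25 ± 0.07 (log2, SE; adjusted p = 0.0318), or 84.3% of the siNC level, in the 5-library comparison. Over all 6 libraries it was -0.11 ± 0.11 (adjusted p = 0.753). XRCC3, which acts in a complex with RAD51C, stood at 9.72, 9.64 and 10.20 in siRPL13 replicates 1 to 3, against 9.88, 10.01 and 9.84 in siNC replicates 1 to 3. Again replicate 3 was the highest of the 6 libraries and the other siRPL13 libraries were the lowest. Its 5-library difference was -0.23 ± 0.07 (adjusted p = 0.0345), and that over all 6 libraries -0.06 ± 0.14 (adjusted p = 0.9). RAD54L, a motor protein that drives strand exchange, stood at 9.67, 9.70 and 10.21 in siRPL13 replicates 1 to 3, against 9.83, 9.93 and 9.91 in siNC replicates 1 to 3. It had the same order, and its 5-library difference was -0.21 ± 0.06 (adjusted p = 0.032). Its difference over all 6 libraries was -0.03 ± 0.13 (adjusted p = 0.943).

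RAD51D, a mediator that acts in a complex with XRCC2, was the only one of the 8 genes that fell whose highest value was not in siRPL13 replicate 3. It stood at 8.81, 8.86 and 9.05 in siRPL13 replicates 1 to 3, against 8.98, 9.06 and 9.12 in siNC replicates 1 to 3. Replicate 3 lay within the siNC range here. The 5-library difference was -0.22 ± 0.07 (adjusted p = 0.0492), close to the threshold, and 8 of 12 other settings lost the call. Over all 6 libraries the difference was -0.14 ± 0.08 (adjusted p = 0.618). The other 8 genes of the group were not called, with adjusted p-values in the 5-library comparison between 0.153 for BRCA1 and 0.994 for PALB2. BRCA1, the ubiquitin ligase that promotes resection, had a 5-library difference of -0.15 ± 0.07, and its partner BARD1 one of -0.10 ± 0.07 (adjusted p = 0.329). The helicase BRIP1, which binds BRCA1, had -0.18 ± 0.09 (adjusted p = 0.185), and RAD51AP1, which promotes strand pairing, had -0.08 ± 0.07 (adjusted p = 0.398). PALB2, which links BRCA1 to BRCA2, had the smallest difference of the group. It stood at 8.32, 8.32 and 8.37 in siRPL13 replicates 1 to 3, against 8.26, 8.38 and 8.31 in siNC replicates 1 to 3, so that the siRPL13 libraries all lay within the siNC range. The values of RAD51C (0.10 ± 0.06, adjusted p = 0.273), XRCC2 (0.06 ± 0.06, adjusted p = 0.529) and RAD54B (0.03 ± 0.09, adjusted p = 0.842) lay above 0. Over all 6 libraries the differences of these 8 genes were -0.09 for BRCA1, -0.06 for BARD1, -0.03 for BRIP1, 0.02 for PALB2, 0.004 for RAD51AP1, 0.05 for RAD51C, 0.08 for XRCC2 and 0.05 for RAD54B.

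Among the Fanconi genes 2 of 10 fell and 0 rose in the 5-library comparison, against 10.7% and 8.42% of all genes tested. The median difference was 0.0015, and 0.02 over all 6 libraries. FANCA, a subunit of the core complex, had the largest difference of the 38 repair genes. It stood at 9.38, 9.48 and 10.10 in siRPL13 replicates 1 to 3, against 9.89, 9.86 and 9.82 in siNC replicates 1 to 3. The siNC libraries lay close together, 2 siRPL13 libraries lay below them and 1 above. The 5-library difference was -0.43 ± 0.06 (adjusted p = 0.00161), or 74.4% of the siNC level, and with all 6 libraries it was -0.21 ± 0.16 (adjusted p = 0.687). FANCG, which binds FANCA in the core complex, stood at 10.57, 10.59 and 10.94 in siRPL13 replicates 1 to 3, against 10.84, 10.78 and 10.80 in siNC replicates 1 to 3. The order was that of FANCA with a smaller gap, and the 5-library difference was -0.23 ± 0.05 (adjusted p = 0.0119). It was -0.11 ± 0.10 over all 6 libraries (adjusted p = 0.718).

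The remaining core complex subunits were not called: FANCE had a 5-library difference of -0.16 ± 0.06 (adjusted p = 0.101), FANCB one of -0.08 ± 0.07 (adjusted p = 0.466), FANCC one of 0.03 ± 0.06 (adjusted p = 0.733) and FANCF one of 0.01 ± 0.07 (adjusted p = 0.952). FANCL, the ubiquitin ligase of the complex, had one of 0.09 ± 0.08 (adjusted p = 0.441). FANCM, the translocase that anchors the complex to DNA, stood at 6.57, 6.64 and 6.79 in siRPL13 replicates 1 to 3, against 6.35, 6.43 and 6.63 in siNC replicates 1 to 3, and had the highest difference with all 6 libraries (0.20 ± 0.09, adjusted p = 0.589). FANCD2, which receives the ubiquitin, stood at 9.68, 9.79 and 9.78 in siRPL13 replicates 1 to 3, against 10.01, 9.65 and 9.55 in siNC replicates 1 to 3. All siRPL13 values lay inside the siNC range, whose SD of 0.24 was the largest of the 38 repair genes (median 0.068), and the 5-library difference was -0.005 ± 0.11 (adjusted p = 0.982). Its partner FANCI varied alike, with 11.51, 11.20 and 11.20 in siNC replicates 1 to 3, and a 5-library difference of 0.01 ± 0.09 (adjusted p = 0.946). Over all 6 libraries the differences of the other genes not called were -0.07 for FANCE, 0.03 for FANCB, 0.07 for FANCC, -0.004 for FANCF, 0.07 for FANCL, 0.01 for FANCD2 and 0.04 for FANCI.

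Of the 8 genes of end resection, junction processing and mismatch repair, 0 fell and 0 rose by limma in the 5-library comparison, against 10.7% and 8.42% of all genes tested. At an unadjusted p under 0.05 the count was 1 (BLM), where 33.4% of all genes tested passed. With all 6 libraries it was 0, where 8.32% did. Their median difference was -0.04, and -0.02 over all 6 libraries. MRE11, the nuclease that starts resection, had the smallest difference of the group. It stood at 8.76, 8.94 and 8.88 in siRPL13 replicates 1 to 3, against 9.02, 8.70 and 8.86 in siNC replicates 1 to 3, all siRPL13 values lying inside the siNC range (-0.01 ± 0.10, adjusted p = 0.949). Its complex partners RAD50 (-0.04 ± 0.09, adjusted p = 0.782) and NBN (0.03 ± 0.07, adjusted p = 0.809) were also near 0 in the 5-library comparison. RBBP8, or CtIP, which stimulates MRE11, had -0.16 ± 0.08 (adjusted p = 0.195), and the exonuclease EXO1 had -0.12 ± 0.08 (adjusted p = 0.318). BLM, a helicase that takes apart recombination intermediates, came nearest to the threshold among the 29 genes not called. It stood at 8.22, 8.32 and 8.63 in siRPL13 replicates 1 to 3, against 8.43, 8.46 and 8.49 in siNC replicates 1 to 3, a 5-library difference of -0.19 ± 0.07 (adjusted p = 0.0791). The mismatch repair genes MSH6 (-0.05 ± 0.06, adjusted p = 0.617) and PMS2 (0.10 ± 0.07, adjusted p = 0.343) were not called. Over all 6 libraries the 8 differences ran between -0.07 for RBBP8 and BLM and 0.07 for NBN. PMS2 has PMS2CL and 10 further annotated pseudogenes that can share its reads, so its value is uncertain. CHEK2, with 4 pseudogenes, and FANCD2, MRE11, RBBP8 and RAD51AP1, with 1 each, carry the same limit.

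Among the checkpoint genes 2 of 8 fell and 1 rose in the 5-library comparison, against 10.7% and 8.42% of all genes tested. The median difference was -0.003, and 0.02 over all 6 libraries. ATRIP, the partner that brings ATR to single-stranded DNA, stood at 8.65, 8.76 and 9.16 in siRPL13 replicates 1 to 3, against 9.05, 9.06 and 9.05 in siNC replicates 1 to 3. The siNC libraries had the smallest SD of all 38 repair genes (0.0033), 2 siRPL13 libraries lay below them and replicate 3 above. The 5-library difference was -0.35 ± 0.07 (adjusted p = 0.00572), or 78.5% of the siNC level, and with all 6 libraries it was -0.20 ± 0.12 (adjusted p = 0.636). ATRIP shares 27.9% of its exonic bases with TREX1 on the same strand, which also fell (-0.39 ± 0.10, adjusted p = 0.0171), so the deposited values may not separate the 2 genes. H2AFX, now named H2AX, the histone that is phosphorylated around breaks, stood at 13.08, 13.16 and 13.47 in siRPL13 replicates 1 to 3, against 13.35, 13.30 and 13.26 in siNC replicates 1 to 3. It followed the order of FANCA, with a 5-library difference of -0.18 ± 0.05 (adjusted p = 0.0307), and -0.07 ± 0.10 with all 6 libraries (adjusted p = 0.831).

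TP53BP1, which limits resection and steers breaks towards end joining, was the only repair gene that rose. It stood at 11.51, 11.55 and 11.37 in siRPL13 replicates 1 to 3, against 11.42, 11.35 and 11.26 in siNC replicates 1 to 3. Replicates 1 and 2 lay above every siNC library, and replicate 3 within their range. The 5-library difference was 0.19 ± 0.06 (adjusted p = 0.0416), or 114% of the siNC level, and with all 6 libraries it was 0.13 ± 0.07 (adjusted p = 0.599). ATR was the 1 of 38 genes with all 3 siRPL13 libraries below every siNC library, where 6.90% of all genes tested were, and 0 had them all above, where 6.92% did. It stood at 9.12, 9.10 and 9.11 in siRPL13 replicates 1 to 3, against 9.26, 9.17 and 9.25 in siNC replicates 1 to 3. Its difference was -0.12 ± 0.06 both with all 6 libraries (adjusted p = 0.603) and in the 5-library comparison (adjusted p = 0.217). ATM had a 5-library difference of 0.14 ± 0.06 (adjusted p = 0.121), the highest among the genes not called. The effector kinases CHEK1 (0.07 ± 0.07, adjusted p = 0.522) and CHEK2 (-0.07 ± 0.07, adjusted p = 0.523) lay on either side of 0. TOPBP1, the activator of ATR, had the smallest difference of the group, with 10.40, 10.47 and 10.49 in siRPL13 replicates 1 to 3, against 10.40, 10.28 and 10.43 in siNC replicates 1 to 3 (0.06 ± 0.06, adjusted p = 0.498). Over all 6 libraries the differences were 0.10 for ATM, 0.03 for CHEK1, 0.002 for CHEK2 and 0.08 for TOPBP1.

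**Figure D2:**
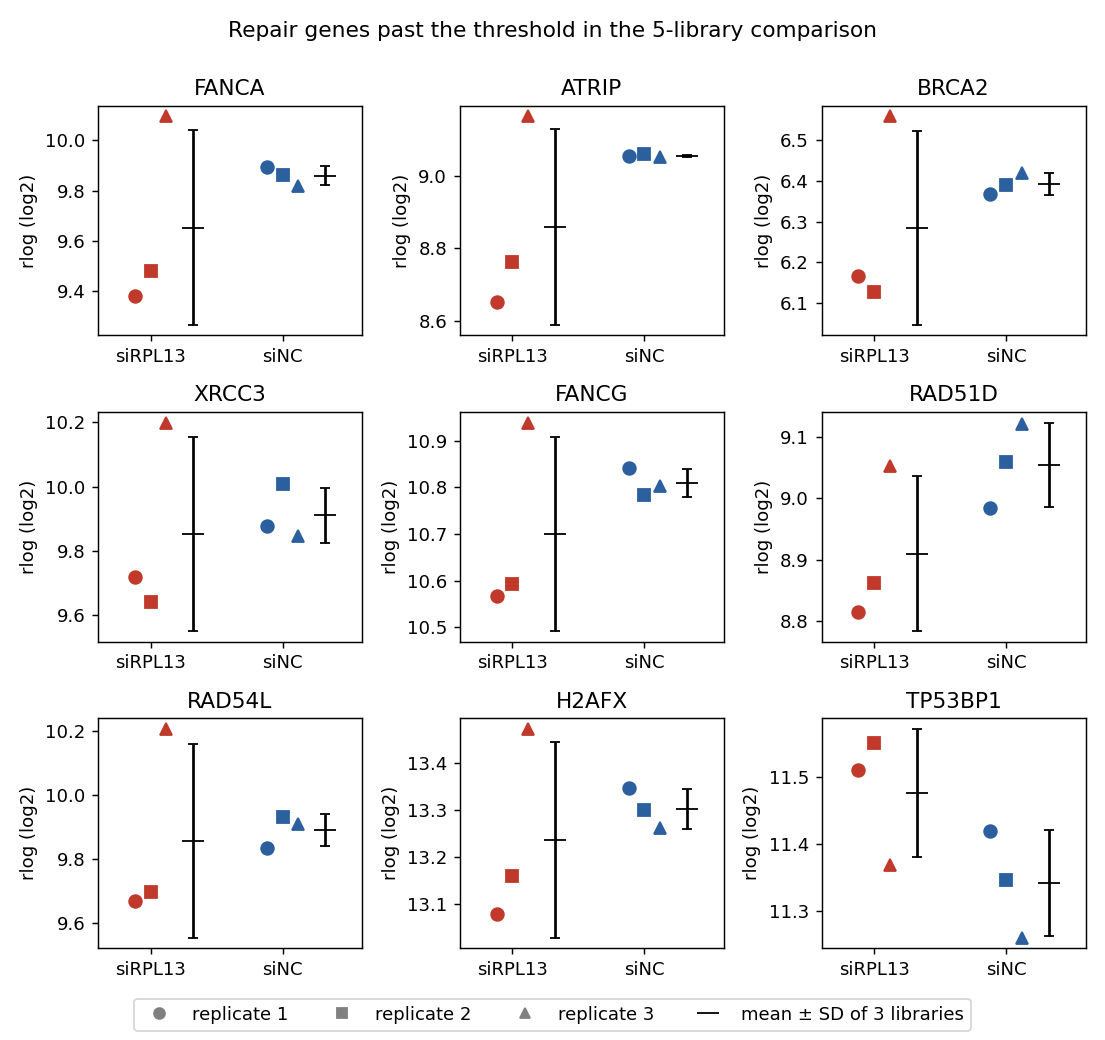
Level of the 9 repair genes past the threshold in the 5-library comparison, 1 panel each, as rlog values (vertical axes, log2, not starting at 0), with siRPL13 libraries in red and siNC libraries in blue, the shape giving the replicate number and the bar the mean ± SD of 3 libraries. In 7 of the 8 panels of genes that fell, siRPL13 replicate 3 is the highest point, as for FANCA with 10.10 against a highest siNC value of 9.89.

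On GRCh38, the annotation GENCODE 29 places FANCA on chromosome 16 at 89737549 to 89816657 (minus strand), ATRIP on chromosome 3 at 48446710 to 48467645 (plus), BRCA2 on chromosome 13 at 32315474 to 32400266 (plus) and XRCC3 on chromosome 14 at 103697609 to 103715504 (minus). FANCG lies on chromosome 9 at 35073835 to 35080016 (minus), RAD51D on chromosome 17 at 35092208 to 35121522 (minus) and RAD54L on chromosome 1 at 46247688 to 46278473 (plus). H2AFX lies on chromosome 11 at 119093854 to 119095467 (minus) and TP53BP1 on chromosome 15 at 43403061 to 43510728 (minus). Of the called genes 4 share a larger part of their exonic bases with a gene on the other strand, and the sources used here do not say whether reads were counted by strand. XRCC3 shares 76.7% with KLC1 (5-library difference -0.13 ± 0.06, adjusted p = 0.132) and TP53BP1 shares 28.7% with TUBGCP4 (0.05 ± 0.06, adjusted p = 0.541). RAD54L shares 25.1% with LRRC41 (0.09 ± 0.06, adjusted p = 0.284) and FANCA shares 23.6% with ZNF276 (0.08 ± 0.08, adjusted p = 0.525). None of these 4 partners was called. Among the genes not called, RAD50 and RAD54B share 79.7% and 59.1% of their exonic bases with another annotated gene on the same strand.

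The library labelled siRPL13 replicate 3 held the highest value of the 6 for 18 of the 38 repair genes (47.4%), where it did so for 22.0% of all genes tested. It lay above both other siRPL13 libraries for 26 of 38, where 43.2% of all genes tested did. The median over the 38 genes, as rlog minus the siNC mean, was -0.10, -0.03 and 0.10 in siRPL13 replicates 1 to 3, against 0.01, -0.002 and 0.006 in siNC replicates 1 to 3. The siRPL13 medians therefore lay on both sides of the siNC medians. The siNC values are taken from their own mean, which draws them towards 0, so the spreads of the groups cannot be compared here. Replicates 1 and 2 both lay below every siNC library for 15 of 38 genes, where 26.6% of all genes tested did, and both above for 3 (RAD51C, ATM and TP53BP1), where 24.7% did. Within siNC, replicate 1 was the highest of all 6 libraries for 8 of 38 genes (BARD1, FANCD2, FANCI, MRE11, EXO1, MSH6, ATR and CHEK1), where 17.3% of all genes tested had their highest value there.

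**Figure D3:**
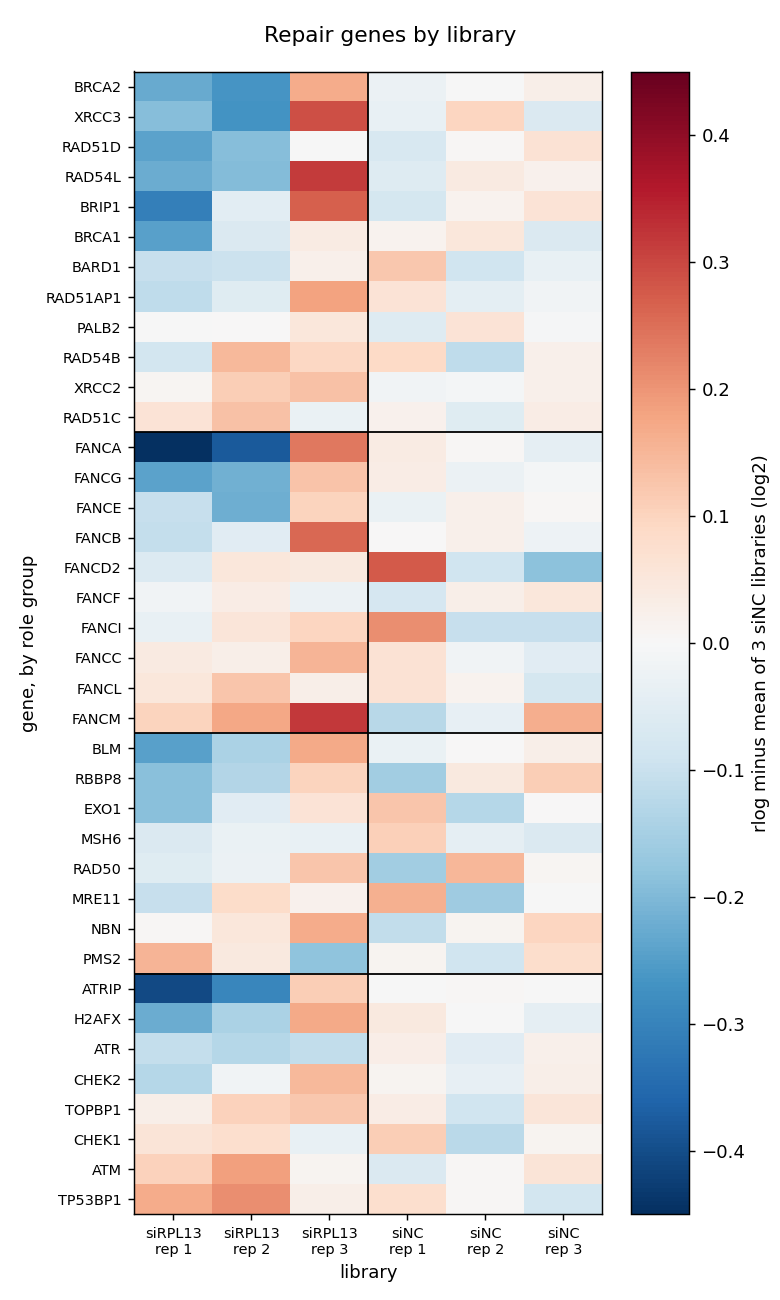
Each of the 38 repair genes (rows, by role group) in each library (columns, siRPL13 replicates left of the line and siNC replicates right of it), coloured by rlog minus the siNC mean of 3 libraries (log2). The columns of siRPL13 replicates 1 and 3 differ in sign for most genes, with medians of -0.10 and 0.10.

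Promoter windows of 300 bases, 250 before and 50 after each RefSeq start site on GRCh38.p14, were found for 35 of the 38 genes, including all 9 that were called. They were searched on both strands for CCAAT (the box bound by NF-Y), TTTGAA (the cell cycle homology element) and the E2F motifs TTTCCCGC, TTTGGCGC, TTTCGCGC and TTCCCGCC, of which TTTCCCGC and TTCCCGCC can overlap. The windows of FANCA (the largest fall), XRCC3 and RAD54L (the genes that fell with an E2F motif), TP53BP1 (the rise) and FANCD2 (not called, with both overlapping motifs) are shown 5′ to 3′ on the gene's strand, with every match on either strand in capitals. They lie at chr16:89816598-89816897 (minus) for FANCA, chr14:103715402-103715701 (minus) for XRCC3, chr1:46247438-46247737 (plus) for RAD54L, chr15:43510591-43510890 (minus) for TP53BP1 and chr3:10026187-10026486 (plus) for FANCD2.
FANCA: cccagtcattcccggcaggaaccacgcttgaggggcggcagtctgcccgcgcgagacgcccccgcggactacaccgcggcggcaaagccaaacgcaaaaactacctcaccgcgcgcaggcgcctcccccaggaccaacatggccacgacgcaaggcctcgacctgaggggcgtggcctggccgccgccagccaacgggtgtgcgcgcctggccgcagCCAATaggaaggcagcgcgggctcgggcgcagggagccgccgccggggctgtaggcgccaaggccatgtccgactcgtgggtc
XRCC3: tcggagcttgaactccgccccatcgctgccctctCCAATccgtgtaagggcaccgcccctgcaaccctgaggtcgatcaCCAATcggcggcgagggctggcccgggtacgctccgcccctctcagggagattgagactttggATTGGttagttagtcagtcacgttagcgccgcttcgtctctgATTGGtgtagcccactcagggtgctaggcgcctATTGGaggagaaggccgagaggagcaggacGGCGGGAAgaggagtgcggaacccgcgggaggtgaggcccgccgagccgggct
RAD54L: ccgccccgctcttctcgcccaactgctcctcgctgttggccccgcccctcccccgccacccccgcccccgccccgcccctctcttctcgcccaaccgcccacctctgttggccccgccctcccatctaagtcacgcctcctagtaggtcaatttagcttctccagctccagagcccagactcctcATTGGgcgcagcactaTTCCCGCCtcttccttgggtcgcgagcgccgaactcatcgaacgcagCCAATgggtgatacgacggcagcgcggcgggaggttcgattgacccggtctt
TP53BP1: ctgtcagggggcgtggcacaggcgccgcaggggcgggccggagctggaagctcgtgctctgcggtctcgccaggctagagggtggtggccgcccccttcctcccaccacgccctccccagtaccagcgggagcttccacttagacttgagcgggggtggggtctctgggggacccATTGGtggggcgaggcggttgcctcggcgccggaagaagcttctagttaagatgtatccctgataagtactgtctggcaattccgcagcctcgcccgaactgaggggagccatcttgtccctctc
FANCD2: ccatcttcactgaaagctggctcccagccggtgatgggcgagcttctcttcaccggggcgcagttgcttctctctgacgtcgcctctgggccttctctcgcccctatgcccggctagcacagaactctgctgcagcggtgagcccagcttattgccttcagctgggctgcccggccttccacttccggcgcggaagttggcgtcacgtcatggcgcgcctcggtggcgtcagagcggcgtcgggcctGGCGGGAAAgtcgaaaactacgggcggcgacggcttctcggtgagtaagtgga

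At least 1 of the 4 E2F motifs was found in 12 repair genes and in 32% of their 50 windows, against 5.029% of all 35116 RefSeq windows. TTCCCGCC accounted for most, with 10 genes and 26.0% of windows, against 3.155% of all windows, and TTTGGCGC was found in 0.0%, against 0.652%. Of the 12 genes 2 fell (RAD54L and XRCC3) and 10 were not called (BLM, BRIP1, EXO1, FANCC, FANCD2, FANCL, MSH6, RAD51AP1, TOPBP1 and XRCC2). CCAAT was found in 19 of the 35 genes with a window and in 50% of their windows, against 34.614% of all windows. Of the 8 genes that fell 5 held it, as did TP53BP1. XRCC3 held 5 CCAAT matches and RAD54L 2. TTTGAA was found in 4 genes and 8.0% of windows, against 15.161% of all windows, and 1 of the 4, H2AFX, fell. The E2F motifs were thus more frequent in these windows than in all windows. Most of the genes that held one were not called, but so were 29 of the 38 repair genes. Of the 38 repair genes 21.1% fell, as did 10.7% of all genes tested.

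The genes that fell had a higher median GC content than the rest, which was not tested. The median GC content of the longest coding transcript was 56.8% for the 8 that fell, 45.7% for TP53BP1, 41.4% for the 29 not called and 48.4% for all genes tested with a value. Of the 8 repair genes with a GC content of at least 50%, 6 fell (FANCA, ATRIP, XRCC3, FANCG, RAD54L and H2AFX; not FANCE or FANCC), where 15.9% of all genes tested in that range did. Of the 30 repair genes under 50%, 2 fell (BRCA2 and RAD51D), where 6.79% of all genes tested in that range did. The libraries themselves differed by GC: over 14933 genes, Spearman's rho between GC content and rlog minus the siNC mean was -0.16, -0.24 and 0.38 in siRPL13 replicates 1 to 3, against -0.31, 0.35 and -0.03 in siNC replicates 1 to 3. Genes are not independent replicates, and these are descriptions of the libraries. After a correction for GC within each library, 7 genes were lower and 1 higher in the 5-library comparison: H2AFX and RAD51D were not called, BLM was, and FANCA, ATRIP, BRCA2, XRCC3, FANCG, RAD54L and TP53BP1 still were. The share of all genes tested called after this correction is not given here, so these counts cannot be set against it.

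**Figure D4:**
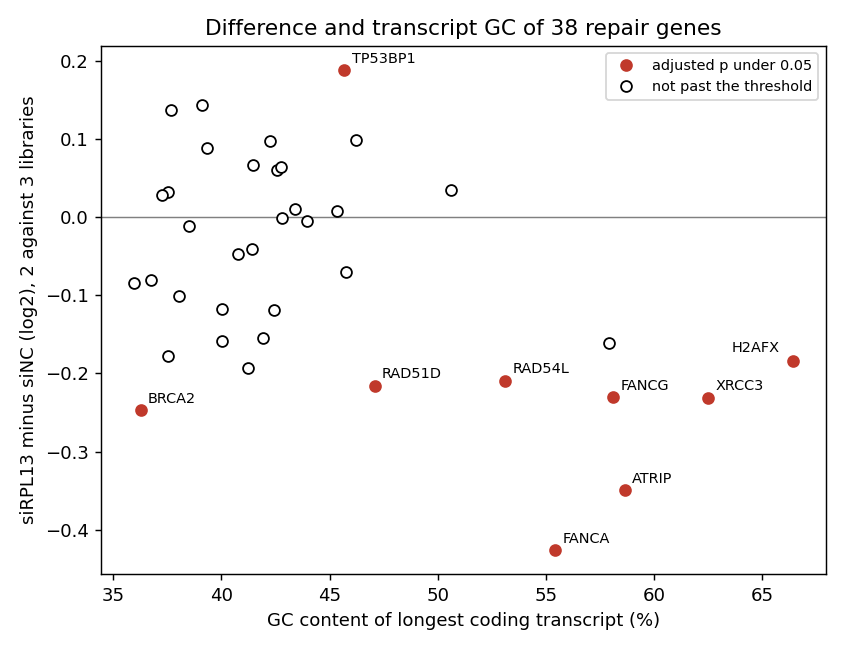
Difference of the 38 repair genes in the 5-library comparison, siRPL13 minus siNC (vertical axis, log2), against the GC content of the longest coding transcript (horizontal axis, percent), with genes past the threshold in red. Of the 8 genes at 50% or more, 6 are red and below 0, and of the 30 under 50%, 3 are red.

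Lists of further repair genes were counted in the same way in the 5-library comparison, where 10.7% of all genes tested fell and 8.42% rose. Of 37 other recombination and Fanconi genes 4 fell (10.8%) and 1 rose, with a median difference of 0.019, and 0.017 over all 6 libraries. Among them RMI2, a partner of BLM, fell (-0.52 ± 0.10, adjusted p = 0.00648), and BRCC3, a deubiquitinase of the BRCA1-A complex, rose (0.29 ± 0.07, adjusted p = 0.015). Of 10 other mismatch repair genes 3 fell (30%), with LIG1 (-0.37 ± 0.06, adjusted p = 0.0024) and PCNA (-0.32 ± 0.07, adjusted p = 0.00972), which also serve replication, and 0 rose. Of 21 other checkpoint genes 5 fell (23.8%) and 0 rose, with a median difference of -0.10, and -0.05 over all 6 libraries. The phosphatases CDC25C (-0.48 ± 0.08, adjusted p = 0.0029) and CDC25B (-0.44 ± 0.05, adjusted p = 0.000674), which drive entry into mitosis, fell most.

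In the other repair pathways the counts were 0 or 1 in each direction, against the same 10.7% and 8.42% of all genes tested. Of 12 end joining genes 1 rose (8.33%), PRKDC, the catalytic subunit of the DNA-dependent kinase (0.27 ± 0.06, adjusted p = 0.00811), and 0 fell. In base excision repair 1 of 20 rose, the glycosylase OGG1 (0.24 ± 0.06, adjusted p = 0.0181), and 1 fell, the scaffold XRCC1 (-0.21 ± 0.06, adjusted p = 0.0316). In nucleotide excision repair 1 of 18 rose and 1 fell, the damage recognition protein XPC (-0.34 ± 0.06, adjusted p = 0.00324). No gene of these 6 lists passed limma's test with all 6 libraries (0 of each). With all 6 libraries 8.32% of all genes tested had an unadjusted p under 0.05. The counts at that level were 2 of 37 other recombination and Fanconi genes, 2 of 10 other mismatch repair genes and 2 of 21 other checkpoint genes. There was also 1 of 18 nucleotide excision genes, and 0 in the remaining lists.

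Markers of dividing cells fell in a larger share than the repair genes, of which 21.1% fell. Of 22 proliferation markers 15 fell (68.2%) and 0 rose in the 5-library comparison, where 10.7% of all genes tested fell. Their median difference was -0.28, against -0.059 for the repair genes and -0.0014 for all genes tested. With all 6 libraries 0 of the 22 passed the test, and 4 had an unadjusted p under 0.05, where 8.32% of all genes tested did. The median difference was then -0.15, against 0.0005 for the repair genes. The cyclin CCNB1 (-0.45 ± 0.07, adjusted p = 0.00186) and the ribonucleotide reductase subunit RRM2 (-0.44 ± 0.08, adjusted p = 0.00569) fell most. The median of the list, as rlog minus the siNC mean, was -0.36, -0.22 and 0.08 in siRPL13 replicates 1 to 3, against 0.04, -0.06 and 0.03 in siNC replicates 1 to 3. The order of the 3 siRPL13 libraries was thus the same as for the repair genes, but it was not particular to these lists. The other checkpoint genes (-0.17, -0.08 and 0.04) and the base excision genes (-0.017, -0.006 and 0.010) had it too. The nucleotide excision genes (0.02, 0.04 and -0.03) did not. The part of the proliferation markers in the differences of the repair genes was not tested. Of the other cell type markers, the endothelial gene CDH5 fell (-0.46 ± 0.08, adjusted p = 0.0034) among 3 endothelial and epithelial markers tested, NES (-0.34) and VIM (-0.31) fell among 9 glial markers tested, and 0 of 4 neuronal and 0 of 2 leukocyte markers were called.

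**Figure D5:**
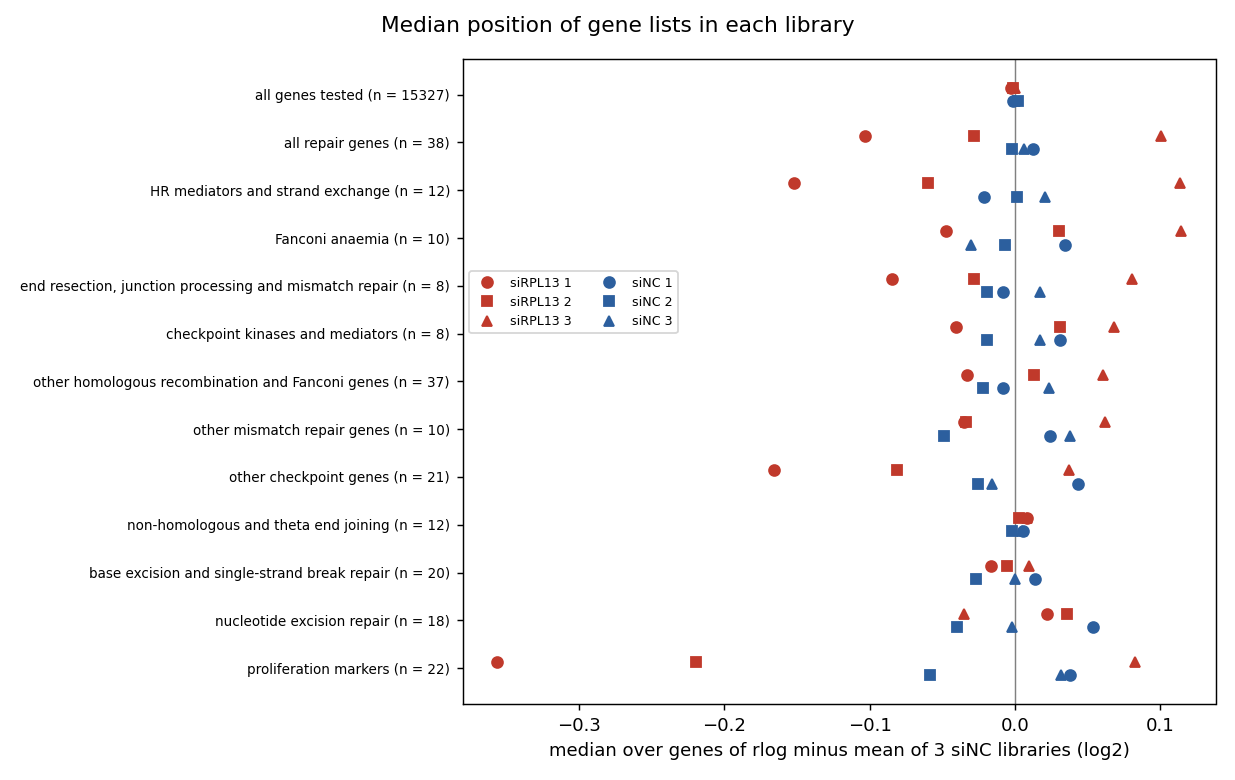
Median of each gene list in each library, as rlog minus the siNC mean (log2, horizontal axis), with siRPL13 libraries in red and siNC libraries in blue and the shape giving the replicate number. The proliferation markers lie at -0.36, -0.22 and 0.08 in siRPL13 replicates 1 to 3, and the recombination mediators at -0.15, -0.06 and 0.11.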

How the data were processed

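Total RNA of 3 siRPL13 and 3 siNC cultures was sequenced; per the labels' protocols, the siRNA was given as 2.5 µL at 20 µM, and 1.5 µg of RNA went into a NEBNext Ultra library. The authors deposited 1 table of rlog values on the log2 scale. GRCh38.p7, HTSeq 0.6.1p1, TopHat, DESeq2 and Trimmomatic 0.33 are listed, per the submitters' processing notes, with no role or order. Because rlog values are pulled towards each gene's mean, differences of genes with few reads are understated; read depth cannot be recovered and no count model was used.

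Symbols came from a table of current names (20499 of 21429 identifiers) and from GENCODE 29 (20608); 821 were in neither. H2AX is listed under its GENCODE 29 name H2AFX. The 15327 genes whose mean rlog reached 3 were tested with limma 3.58.1 in R 4.3.3 (two-sided; lmFit, eBayes with trend), and p-values were adjusted by Benjamini-Hochberg over this whole set; the threshold was 0.05, and all adjusted p-values are those of limma. The test was also run on simulated data with the same spread in both groups and no deviating library. That run does not bear on the effect of siRPL13 replicate 3. Percentages of the siNC level are 2 to the power of the rlog difference. Promoter windows came from RefSeq (GRCh38.p14), and figures from matplotlib 3.10.9.

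The repair genes, the other lists, the tests and the fit without the library labelled siRPL13 replicate 3 were chosen with earlier results of these data known. Full values are given for every called repair gene and for the one with the smallest 5-library difference in each role group; from each other list the genes named are the 2 with the largest difference in each direction past the threshold, of which 2 genes are left out. ATR, BLM, FANCI and FANCM, the printed promoters, the GC correction and the GC limit of 50% were chosen after values had been seen. Other settings were library weights, a replicate block, eBayes without trend, median centring, quantile scaling, a filter at a mean rlog of 5 or none, and leaving out each library. No identical values were found between libraries (0 in each pair).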

Additional observations from a re-analysis of the deposited data

How the results depend on the processing

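With all 6 libraries, 0 repair genes were called in either direction under every setting tried except library weights (2 higher, 12 lower) and leaving out 1 library (0 to 1 higher, 0 to 8 lower, the highest counts being those without siRPL13 replicate 3). In the 5-library comparison (1 higher, 8 lower) the count of higher genes was 0 with no filter and with eBayes without trend, and the count of lower genes was 4 with quantile scaling. Leaving out a siNC library as well moved the counts as described above, and no count is given for fits with a lone siRPL13 library. In those fits that library is assumed to vary like the siNC libraries. Each fit without a further library holds fewer samples, and the cause of these shifts was not tested. The share of all genes tested that was called is given only for the unaltered comparisons and for library weights (17.7% lower, 17.0% higher). Counts under the other settings cannot be set against it.

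None of the 9 called genes changed sign in the 12 alternatives to the 5-library comparison. The call was lost in 1 of 12 for FANCA (adjusted p between 0.000308 and 0.0604) and for ATRIP (0.00153 to 0.128), both without siRPL13 replicate 1. It was lost in 2 of 12 for FANCG (0.00314 to 0.177), in 4 for BRCA2 and XRCC3, in 5 for H2AFX and RAD54L, in 6 for TP53BP1 and in 8 for RAD51D.

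Several differences of genes not called in that fit changed sign. With all 6 libraries these were PALB2 with library weights (-0.0018) and MRE11 with quantile scaling (0.0079), median centring (0.0045) and library weights (0.072). In the 5-library comparison these were PALB2 (quantile scaling 0.0054, median centring 0.0076), FANCD2 (quantile scaling 0.021, median centring 0.0040, library weights 0.070), MRE11 (quantile scaling 0.0054), FANCF (library weights -0.013) and NBN (library weights -0.0092, GC correction -0.013). The GC correction also turned RAD54B (-0.0089) and FANCI (-0.011). Leaving out libraries turned, from all 6, FANCD2 (-0.081 to 0.149), H2AFX (-0.184 to 0.013), MRE11 (-0.080 to 0.080), PALB2 (-0.012 to 0.048), RAD54L (-0.209 to 0.060) and XRCC3 (-0.231 to 0.049). From the 5-library comparison it turned FANCD2 (-0.097 to 0.133, and 0.051 without siRPL13 replicate 1), FANCF (-0.031 to 0.033, and -0.017 without siRPL13 replicate 2), FANCI (-0.042 to 0.115, with -0.035 without siRPL13 replicate 2 and -0.041 without siNC replicate 3), MRE11 (-0.104 to 0.082, and 0.069 without siNC replicate 1), MSH6 (-0.080 to 0.0057), NBN (-0.027 to 0.077), PALB2 (-0.029 to 0.030, and 0.00077 without siRPL13 replicate 1), RAD50 (-0.119 to 0.035) and RAD54B (-0.083 to 0.147, and -0.024 without siNC replicate 2).

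The replicate block gave 0 higher and 0 lower genes with all 6 libraries. For libraries of the same number, deviations from the group means had correlations of 0.084, -0.428 and -0.328 for numbers 1 to 3. Deviations of 3 libraries sum to 0 in each group, and siRPL13 replicate 3 is part of the siRPL13 mean. These correlations therefore cannot show or exclude a link between libraries of the same number. The numbers were not taken as pairs. Between libraries of different numbers the correlations ran from -0.380 (siRPL13 replicate 1 with siNC replicate 2) to 0.454 (siRPL13 replicate 3 with siNC replicate 2). Read depth is unknown, which limits every value to the spread between libraries.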

Other observations

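FANCA lies on the same chromosome as the siRNA's target. On GRCh38 chromosome 16 a gap of 171 kb separates RPL13 from the nearer end of FANCA. That is where the gene ends and not its start site, as FANCA is on the minus strand. The pair was looked at after its values had been seen. Besides RPL13 and FANCA, 8 genes were tested in the interval, among them ZNF276, which overlaps FANCA. Of the 8, 1 fell in the 5-library comparison, CHMP1A (-0.16, adjusted p = 0.0487 by limma), and 0 rose. Of all genes tested 10.7% fell and 8.42% rose.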
